A study of Mus musculus with 34 samples.

Results

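Mesoderm sections of embryos labelled Evx1as-/- (homozygous) were set against mesoderm sections of embryos labelled Evx1as+/- (heterozygous). A section was counted where its cell type label named mesoderm and its title named the same region, which gave 8 of the 34 samples in the series, 5 homozygous (layers 3, 5, 7, 9 and 11) and 3 heterozygous (layers 7, 9 and 11). All 8 came from C57/B6 mouse embryos at embryonic day 7.0, were cut out of frozen sections by laser capture and were amplified with Geo-seq, which profiles RNA from a few captured cells. No label names a treatment, describes the Evx1as allele or says in which direction the layers are numbered, and no embryo section is labelled wild type. Labels tie no section to an embryo, so several sections of a genotype can come from the same animal. The p-values below take sections as independent, are therefore too small, and measure only the spread between these sections. Another 3 sections, 2 heterozygous and 1 homozygous, carry a title and a cell type label that name different regions, and they stayed out of the comparison.

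At gastrulation, cells of the epiblast pass through the primitive streak, lose their epithelial contacts and spread as mesoderm between epiblast and visceral endoderm. NODAL, WNT, BMP and FGF signals set what these cells become, and genes of the streak such as Eomes, Mixl1 and Wnt3 are normally turned down as mesoderm moves away. Evx1as is a long noncoding RNA transcribed antisense to Evx1, a homeobox gene of the posterior streak. The comparison asks how the transcriptome of the mesoderm layer differs between embryos homozygous and heterozygous for the Evx1as allele.

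Values are FPKM (a read density corrected for transcript length and library size) as deposited, and fold changes are on the log2(FPKM + 1) scale, homozygous minus heterozygous, with layer as a numeric term. That scale understates the change of low genes. Sequencing depth is unknown. The sum of FPKM was 132929 to 252868 per section, and 7025 to 8057 genes reached 1 FPKM in heterozygous against 8420 to 9403 in homozygous sections. Processed pseudogenes, intronless copies whose reads cannot be told apart from those of their parent genes where the sequences match, took 29.04% to 46.1% of FPKM in heterozygous and 37.3% to 54.5% in homozygous sections. The noncoding RNA Yam1 took 1.07% to 33.1% and 7.32% to 22.2%. For protein-coding genes between 5 and 50 FPKM, the deposited interval reached a median of 25.6% to 33.3% of the value to either side in heterozygous sections and 17.5% to 22.1% in homozygous ones. No Y-linked gene of 4 was above 0 in any of the 24 embryo sections with a table. The median log2 change of all 8695 genes tested was 0.31, and it was 0.05 after scaling each section by the median ratio of its genes, so the values below read against 0.31.

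The labels were checked against tissue markers, and the plot of summed tissue markers shows the result. Summed over 9 mesoderm markers, FPKM was 75.3, 147 and 40.9 in heterozygous layers 7, 9 and 11 and 42.9 to 172 in homozygous sections, lowest in layer 3. The groups overlap, and the anterior epiblast sections, which should hold no mesoderm, were at 3.37 and 1.20. Streak sections held 27.3 to 179 (heterozygous) and 20.7 to 145 (homozygous), so this sum does not separate mesoderm from streak. Over the genes tested, homozygous mesoderm sections correlated with each other at a median Pearson r of 0.902 and with homozygous streak at 0.899. In heterozygous sections both medians were 0.811. Mesp1, which specifies the first mesoderm, was at 19.2, 72.8 and 14.1 FPKM in heterozygous and 11.1, 22.0, 29.2, 39.0 and 64.4 in homozygous sections. Msgn1, a regulator of presomitic mesoderm, was listed at 0 in all 3 heterozygous sections and reached 0.573 in the homozygous ones. Summed streak markers were at 12.8 to 40.9 FPKM in heterozygous and 65.7 to 86.5 in homozygous sections, with no overlap. Of 6 markers, 4 lay apart as higher, beside 8.6% of all genes tested. The other 2, T and Nkx1-2, had lower means in homozygous sections (12.1 against 7.82 and 0.174 against 0.0542 FPKM). Wnt3, 1 of the 4, is also a gene called below on these same sections. The streak sums lie below those of the streak sections themselves, which held 276 to 459 (heterozygous) and 238 to 447 (homozygous).

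**Figure D1:**
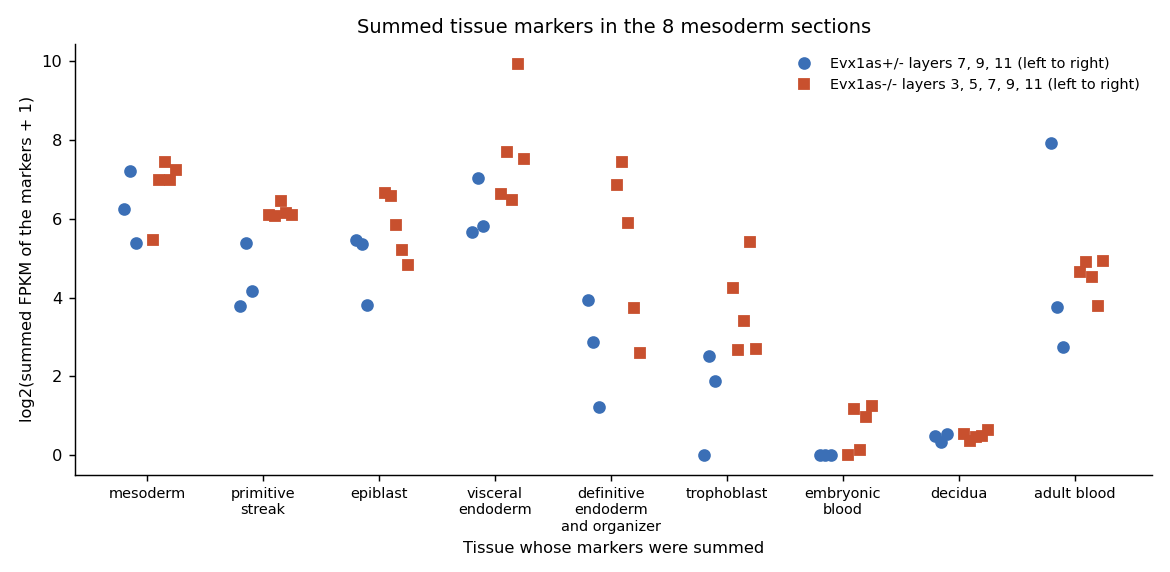
Summed FPKM of the markers of 9 tissues, on a log2 axis after adding 1, 1 point per mesoderm section (circles heterozygous, n = 3; squares homozygous, n = 5). Streak sums of the groups do not overlap, homozygous layer 9 stands at 985 FPKM for visceral endoderm, and heterozygous layer 7 at 244 for adult blood.

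Markers of neighbouring tissues also varied between sections, and some stood out in 1 section. Epiblast markers summed to 42.8, 39.8 and 13.0 FPKM in heterozygous layers 7, 9 and 11 and to 99.2, 94.3, 55.9, 36.0 and 27.3 in homozygous layers 3 to 11. The groups overlap, and in layer 9 the homozygous sum was the lower one. Homozygous layers 3 and 5, the highest, have no heterozygous counterpart. On average 6 of 7 markers were higher in homozygous sections, and 2 lay apart. Visceral endoderm markers, the outer layer of the embryo, summed to 49.4 to 130 FPKM in heterozygous and 87.6 to 208 in 4 homozygous sections, but to 985 in homozygous layer 9, where Apoa1 stood at 294 FPKM. All 11 were higher on average in homozygous sections, an average that includes layer 9. Trf, for one, was at 1.75 FPKM there and at 0 in the other homozygous sections. Of all genes tested 70.4% had a log2 change above 0 in the fit with layer. The marker counts instead compare mean FPKM without layer and include markers under a mean of 1 FPKM. Adult blood markers stood at 244 FPKM in heterozygous layer 7 and 5.66 to 29.4 in the other 7 sections. Trophoblast markers were at 0 to 4.67 and 5.39 to 41.9 FPKM, with Elf5, which defines that lineage, listed at 0 in all 8. Most of this sum was Rhox5 alone, at 0 to 4.67 and 4.74 to 38.8 FPKM. Rhox5 was highest in homozygous layer 9, the section highest in visceral endoderm markers. Decidua markers, from maternal tissue, stayed at or under 0.562. The part of these tissues in the gene differences below was not tested, and in bulk sections fewer cells of a type and less RNA per cell cannot be told apart.

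Evx1as (5730457N03Rik, ENSMUSG00000086126.1, chromosome 6, 52308389 to 52314832, mm10) was at 0.557, 0.838 and 0 FPKM in the heterozygous sections and listed at 0 in all 5 homozygous ones. The exact permutation test, two-sided over 56 assignments, gave p = 0.214 (BH-adjusted 0.321 over 3 such tests), and the smallest p that 3 against 5 sections allow is 0.0357. Its level in heterozygous mesoderm is low beside the highest streak section, at 4.57 FPKM. Evx1 (ENSMUSG00000005503.8, 52313498 to 52318378), which overlaps it, was at 0.565, 0.744 and 0.780 FPKM in heterozygous and 0.0668, 0.567, 0.829, 1.29 and 1.86 in homozygous layers 3 to 11. The groups overlap and did not differ beyond their spread (0.696 ± 0.115 against 0.921 ± 0.684, SD, n = 3 and 5, exact permutation p = 0.571, BH-adjusted 0.571). No source used here says whether reads were counted by strand, and without it reads of this pair cannot be told apart.

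Of 8695 genes tested with limma, 17 (0.196%) rose in homozygous mesoderm and 0 (0%) fell at a Benjamini-Hochberg adjusted p under 0.05. At an unadjusted p under 0.05, 1209 genes (13.9%) were higher and 135 (1.55%) lower, and 748 (8.6%) and 92 (1.06%) had no overlap between groups. Of the 17, 10 are processed pseudogenes, 1 is another pseudogene, and 6 are protein-coding: Tdgf1, Wnt3, Dppa5a, Ctsc, Sgk1 and Olfr414. Wnt3, Dppa5a, Ctsc and Olfr414 reached the filter only through their homozygous sections. Among genes tested, 6 of 6565 protein-coding genes (0.0914%) and 10 of 1591 processed pseudogenes (0.629%) passed. The groups did not overlap for 8.8% (higher) and 0.883% (lower) of the protein-coding genes and for 9.3% and 1.26% of the processed pseudogenes. The median log2 change was 0.29 for the former and 0.60 for the latter. All 17 were higher in 3 of 3 layers present in both genotypes, and for 8 the deposited intervals of every homozygous section lay above those of every heterozygous section. The 17 were called on these same sections, so this largely follows from the call and adds no support to it.

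The count rests on few sections. Without homozygous layer 7, 9 or 11 in turn, 0 genes passed. Leaving out heterozygous layer 7 and homozygous layer 9 together, 0 genes rose and 9 fell, of which 8 are Rps12 pseudogenes and 1 is a snoRNA. The 6 protein-coding genes then had log2 changes of 2.06 to 3.04, all above 0, and limma BH-adjusted p of 0.183 to 0.274. Their groups did not overlap when they were called, so the sign largely follows from the call and adds no support.

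Tdgf1 encodes Cripto, the co-receptor that NODAL needs to signal, and is on in epiblast and streak (ENSMUSG00000032494.12, chromosome 9, 110939603 to 110946158). It was at 11.8, 28.1 and 19.6 FPKM in heterozygous layers 7, 9 and 11 and at 84.9, 109, 130, 90.4 and 91.9 FPKM in homozygous layers 3 to 11. The lowest homozygous section was thus above the highest heterozygous one, and layer made little difference within the homozygous group. The log2 change was 2.41 ± 0.38 (SE; 95% interval 1.56 to 3.25; limma BH-adjusted p = 0.0399). A processed copy, Tdgf1-ps1, was at 2.51, 14.7 and 6.74 against 4.78, 53.5, 86.3, 42.5 and 54.3 FPKM, and where reads fit both the split is uncertain. Summed over gene and copy, levels were 14.4 to 42.9 and 89.7 to 216 FPKM, still without overlap. Homozygous mesoderm was within the range of heterozygous streak, which spanned 16.8 to 173 FPKM around a median of 80.4.

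Wnt3, the WNT ligand without which no streak forms, rose as well (ENSMUSG00000000125.5, chromosome 11, 103774150 to 103817957). It was at 0.395, 0.495 and 1.05 FPKM in heterozygous and 3.79, 3.62, 4.76, 7.51 and 11.3 in homozygous sections. In both genotypes the highest value was in layer 11. The log2 change was 2.39 ± 0.32 (SE; limma BH-adjusted p = 0.0302). Heterozygous streak sections held 3.14 to 14.2 FPKM, above all 3 heterozygous mesoderm sections and overlapping the homozygous ones. Homozygous streak sections held 5.32 to 24.1 FPKM.

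Dppa5a, a gene of pluripotent cells, stood at 0, 0 and 1.12 FPKM in heterozygous and 3.11, 4.94, 9.76, 8.48 and 10.2 in homozygous sections (ENSMUSG00000060461.5, chromosome 9, 78367052 to 78368177; log2 change 2.98 ± 0.35 SE, limma BH-adjusted p = 0.0207). Ctsc, the lysosomal protease cathepsin C, was at 0.165, 1.24 and 0.405 FPKM in heterozygous sections and at 9.60, 20.4, 9.71, 15.0 and 6.69 in homozygous ones (ENSMUSG00000030560.16, chromosome 7, 88278085 to 88310888; 2.92 ± 0.44, limma BH-adjusted p = 0.0302). Sgk1, a kinase induced by serum and by growth factor signalling through PI3-kinase, was flat at 1.51, 1.14 and 1.23 FPKM in heterozygous sections and at 4.44, 14.8, 12.0, 12.8 and 11.7 in homozygous ones (ENSMUSG00000019970.15, chromosome 10, 21882184 to 21999903; 2.50 ± 0.40, limma BH-adjusted p = 0.0425). Homozygous layer 3 is the low section for Sgk1, while Ctsc was lowest in layer 11. Olfr414, annotated as an olfactory receptor, was at 0, 0 and 0.309 FPKM and at 4.34, 3.48, 3.46, 5.92 and 5.29 (ENSMUSG00000051509.5, chromosome 1, 174424126 to 174431552; 2.43 ± 0.33, limma BH-adjusted p = 0.0302). The plot of these 6 genes by layer shows that no homozygous section reached down to a heterozygous value. Genes called on these same sections largely have to look this way.

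**Figure D2:**
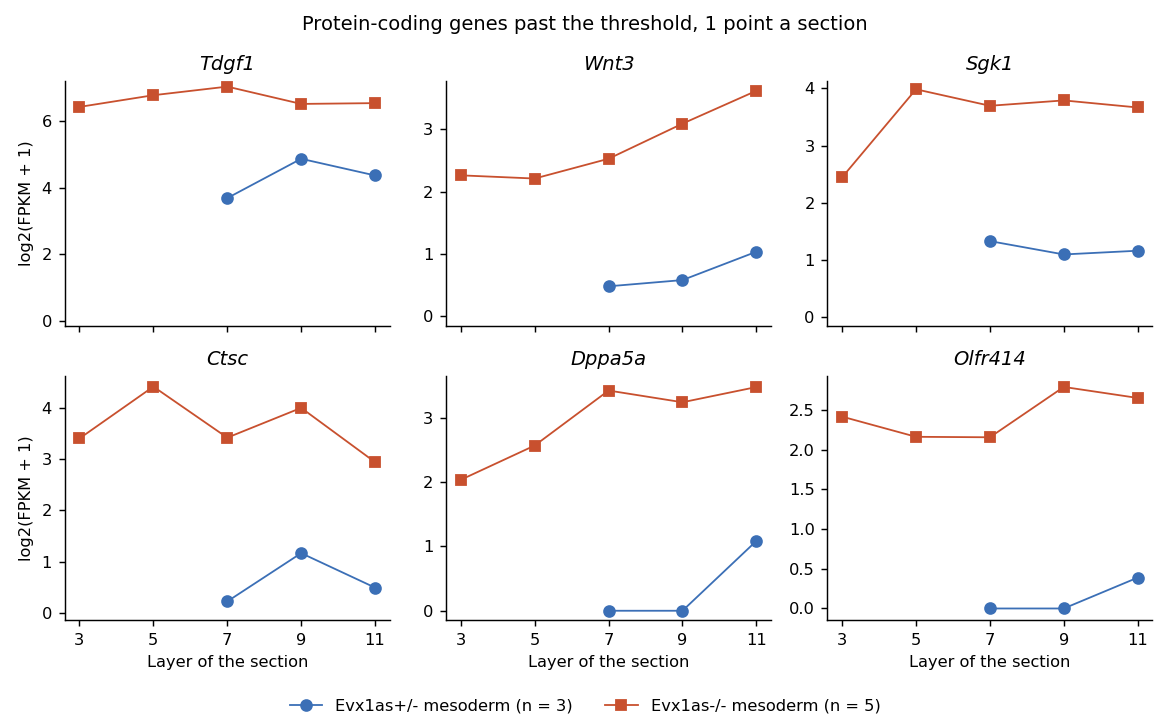
log2(FPKM + 1) of the 6 protein-coding genes past the threshold against section layer, 1 point per section (circles heterozygous, n = 3; squares homozygous, n = 5; lines join layers of a genotype). In every panel all homozygous sections lie above all heterozygous ones, from 84.9 against 28.1 FPKM at the closest for Tdgf1 to 3.11 against 1.12 for Dppa5a.

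The promoters of the NODAL co-receptor, the WNT ligand and the protease are shown because each gene passed the threshold and has a single start in the RefSeq table (GRCm38.p6). Shared regulation of these genes was not tested. Olfr414 also has a single start and is not shown. Each window holds 300 bases around that start, most of them upstream, written 5′ to 3′ on the gene's strand: Tdgf1 at chr9:110946109-110946408 (minus), Wnt3 at chr11:103773925-103774224 (plus) and Ctsc at chr7:88277835-88278134 (plus). Capitals mark matches to the SP/KLF motif.
Tdgf1: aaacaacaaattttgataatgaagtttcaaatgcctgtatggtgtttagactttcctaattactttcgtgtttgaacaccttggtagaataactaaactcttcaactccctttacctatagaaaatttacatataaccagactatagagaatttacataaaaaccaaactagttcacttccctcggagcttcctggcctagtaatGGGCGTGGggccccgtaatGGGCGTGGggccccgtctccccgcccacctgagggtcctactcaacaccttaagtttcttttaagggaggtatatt
Wnt3: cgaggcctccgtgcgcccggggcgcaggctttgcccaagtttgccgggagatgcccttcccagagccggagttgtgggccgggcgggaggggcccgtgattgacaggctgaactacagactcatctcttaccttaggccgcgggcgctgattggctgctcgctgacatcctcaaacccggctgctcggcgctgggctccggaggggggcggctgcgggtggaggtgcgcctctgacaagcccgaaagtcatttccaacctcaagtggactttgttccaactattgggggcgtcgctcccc
Ctsc: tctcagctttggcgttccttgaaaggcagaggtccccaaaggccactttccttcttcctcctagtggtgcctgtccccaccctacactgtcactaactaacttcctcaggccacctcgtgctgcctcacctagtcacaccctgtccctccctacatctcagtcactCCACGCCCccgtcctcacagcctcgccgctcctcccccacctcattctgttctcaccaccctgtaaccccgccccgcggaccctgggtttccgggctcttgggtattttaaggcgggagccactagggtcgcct
Both strands were searched for 4 motifs, FOXH1 (AATCCACA), T-box (TCACACCT), TCF/LEF (CTTTGAT) and SP/KLF (CCACGCCC), the last of them added after the Tdgf1 window had been read. SP/KLF letters occurred at 45 and 26 bases before the Tdgf1 start and at 84 bases before the Ctsc start. They occur in 5.33% of all 32851 promoter windows of 300 bases and in 10.4% of the 6573 windows of genes tested here. The other motifs (in 0.855%, 1.28% and 3.73% of all windows) had no match in the 3 windows, and Wnt3 had none of the 4. A match is a description of the letters and says nothing of binding.

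Genes were then grouped by role, in lists that share members. A list median below covers only members whose mean over the 8 sections reached 1 FPKM, and 5 of the 8 are homozygous, so a gene high only there could enter. These medians describe the members tested and support no difference between lists. Of all genes tested, 8.6% lay apart as higher and 1.06% as lower, and each count of members apart below reads beside these shares. Such counts are no result about a list either. The streak list had 8 of 19 members tested, of which 2 rose (Wnt3 and Tdgf1), 0 fell, and 6 had no overlap, all higher in homozygous sections. The median log2 change of these 8 was 2.12 against 0.31 for all genes tested. With no filter on low values it was 0.03 for the list and 0.12 for all genes. Eomes, the T-box factor that starts mesoderm and endoderm formation, was at 3.71, 6.26 and 1.10 FPKM in heterozygous and 20.3, 17.3, 26.9, 19.6 and 19.7 in homozygous sections (log2 change 2.28, limma BH-adjusted p = 0.0855). Mixl1, which acts downstream of NODAL in mesendoderm, was at 1.27, 10.2 and 5.65 against 10.9, 22.7, 32.5, 32.8 and 28.4 FPKM (2.55, limma BH-adjusted p = 0.0855). Both kept the groups apart without passing. Fgf8, the growth factor that cells need to leave the streak, was at 0.896, 1.67 and 1.09 FPKM in heterozygous sections and 22.2, 13.6, 13.0, 4.41 and 2.77 in homozygous layers 3 to 11 (1.63, limma BH-adjusted p = 0.109). T (brachyury) did not share this direction: it was at 6.17, 22.2 and 7.93 FPKM against 10.4, 8.49, 9.14, 5.90 and 5.18, overlapping, with a log2 change of -0.57 (limma BH-adjusted p = 0.589).

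Of the WNT pathway 18 of 33 members were tested, 1 rose (Wnt3), 0 fell and 4 lay apart, all higher. The list's median was 0.20, and it was 0.06 without heterozygous layer 11 and 0.46 without layer 9. Sp5, a direct WNT target, was at 1.40, 0.8996 and 2.69 FPKM in heterozygous and 20.3, 9.04, 9.15, 9.57 and 7.00 in homozygous sections (log2 change 1.96, limma BH-adjusted p = 0.0872). Dkk1, a secreted WNT inhibitor, was at 0.384 to 2.40 and 2.85 to 13.3 FPKM, and Tcf7, a nuclear effector, at 1.504 to 3.34 and 3.52 to 5.90, both without overlap and without passing. Lef1, the other effector, and Wls, which WNT ligands need for secretion, overlapped, with log2 changes of -0.16 and -0.07. Axin2, the usual feedback target, was under the filter, which takes the mean over all 8 sections (0.228 to 2.80 FPKM in heterozygous and 0.282 to 1.27 in homozygous sections), as was Wnt3a, the ligand of the posterior streak (0 to 0.887 and 0 to 0.808). The 4 Frizzled receptors tested all overlapped.

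Of the NODAL pathway 16 of 23 members were tested, 1 rose (Tdgf1), 0 fell, and 3 lay apart, all higher, with a median of 0.61 (0.36 without heterozygous layer 7). Nodal itself, the ligand, was under the filter at 0.2002, 0 and 0.123 FPKM in heterozygous and 0.189, 5.14, 0.278, 0.306 and 0 in homozygous sections. Layer 5 is the only mesoderm section above 1 FPKM. Cfc1, the second co-receptor, overlapped at 0.457 to 9.89 and 6.17 to 15.9 FPKM (log2 change 1.19). The inhibitors Cer1 and Lefty2 were at 0.151 to 4.94 against 3.71 to 131 FPKM (2.22, limma BH-adjusted p = 0.109) and at 4.19 to 35.8 against 18.1 to 113 FPKM (0.98, limma BH-adjusted p = 0.596). Both overlapped, and both were higher in homozygous sections in 3 of 3 shared layers. Of the effectors, Smad4 was at 3.48 to 4.16 and 5.38 to 8.13 FPKM, and Skil, a repressor induced by SMAD signalling, at 1.16 to 3.31 and 4.10 to 8.60, without overlap (0.73 and 1.52, limma BH-adjusted p = 0.323 and 0.112). Smad2 was at 1.13 to 3.26 and 1.82 to 3.07 FPKM, a log2 change of 0.01.

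Of the BMP pathway 13 of 21 members were tested, 0 passed, and 2 lay apart, both higher: the ligand Bmp7 (0.0819 to 1.07 and 1.32 to 2.73 FPKM) and the effector Smad1 (2.35 to 3.12 and 4.48 to 11.8, log2 change 1.47, limma BH-adjusted p = 0.108). The targets Msx1 and Msx2 overlapped with log2 changes of 1.57 and 1.70 and were highest in homozygous layer 11, at 12.7 FPKM each. Id1, Id2 and Id3, direct targets, had 0.67, 0.68 and -0.34. The list median was 0.67, and 0.37 with no filter. Of the FGF pathway 17 of 23 were tested, 0 passed and 2 lay apart, both higher: Fgf8 and the feedback phosphatase Dusp6, at 3.94, 6.03 and 1.34 against 13.2, 15.4, 18.9, 12.8 and 9.57 FPKM (1.58, limma BH-adjusted p = 0.13). The other feedback genes Spry2, Spry4 and Spred2 overlapped, and the receptor Fgfr2 was at 1.19 to 5.42 and 0.415 to 2.82 FPKM (-1.17, limma BH-adjusted p = 0.308). The FGF median was 0.23, and 0.08 with no filter, 0.02 without heterozygous layer 11 and 0.56 without layer 9.

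Of the nascent mesoderm list 13 of 14 members were tested, 0 passed and 0 lay apart in either direction, with a median of 0.19. It was -0.47 without heterozygous layer 11 and 0.55 without layer 9, where the median of all genes was 0.18 and 0.48. Snai1, which turns down epithelial genes, was at 8.57, 24.9 and 2.95 FPKM against 4.43, 5.14, 10.0, 14.9 and 12.9 (log2 change 0.19). Pdgfra, the receptor on migrating mesoderm, was at 3.49, 4.87 and 2.04 against 0.0668, 2.45, 4.18, 3.07 and 3.30 (-0.12). The 11 mesenchymal genes tested of 14 had a median of 0.19 (-0.15 without heterozygous layer 11, 0.39 without layer 9) and 0 members apart, fibronectin (Fn1) among them at 16.6 to 23.2 and 6.39 to 29.05 FPKM. Of the genes of presomitic mesoderm and NOTCH signalling 7 of 15 were tested, 0 passed, and the median was -0.36. It was 0.14 without heterozygous layer 7, -0.03 without layer 9 and -0.76 without layer 11. Hes1, a NOTCH target, was the only member apart, at 3.61 to 4.95 and 6.94 to 11.9 FPKM, and Dll1, a NOTCH ligand, had -0.36.

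Genes of derivatives of the mesoderm were low in most sections, and only part of each list could be tested. Of the lateral and extraembryonic list 9 of 17 were tested, 0 passed and 2 lay apart, with a median of 0.92 (0.43 with no filter). Those 2 were the zinc finger factors Gata4, at 4.64, 3.10 and 2.42 FPKM against 4.71, 7.33, 8.38, 10.3 and 13.3 (log2 change 1.32, limma BH-adjusted p = 0.152), and Gata6, at 2.28 to 3.41 against 4.05 to 8.47 (0.79). Gata4 also marks visceral endoderm. Hand1, a factor of lateral mesoderm, peaked in layer 11 of both genotypes, at 13.0 and 29.99 FPKM. Of the blood and endothelium list 2 of 14 were tested. Etv2, which starts both lineages, was at 0, 0 and 0.275 FPKM in heterozygous sections and 0.428, 1.39, 1.45, 6.77 and 26.7 in homozygous layers 3 to 11 (2.93, limma BH-adjusted p = 0.0591). Kdr, a receptor on their progenitors, was at 0.395, 1.79 and 1.21 against 0.436, 2.43, 3.88, 4.04 and 12.0 FPKM (1.72, limma BH-adjusted p = 0.0924). With protein-coding genes alone tested, Etv2 passed (limma BH-adjusted p = 0.0362), as did Tmem60 and Olfr121, an olfactory receptor gene that was named after its value was seen.

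Of the 17 organizer and endoderm genes 10 were tested, 0 passed and 3 lay apart, all higher, with a median of 1.19 (0.43 with no filter, 1.07 in layers 7, 9 and 11). Summed over the list, FPKM was 58.5, 29.4 and 11.3 in heterozygous sections and 248, 520, 223, 97.0 and 37.6 in homozygous layers 3 to 11. Gsc, a repressor of the organizer, was listed at 0 in all heterozygous sections and was at 23.2, 10.0, 4.54, 0.996 and 0.131 FPKM in homozygous layers 3 to 11 (log2 change 1.40, limma BH-adjusted p = 0.221). Lhx1, which acts in anterior mesendoderm, was at 6.22, 4.06 and 1.46 against 42.3, 55.9, 49.99, 28.3 and 9.20 FPKM (2.31, limma BH-adjusted p = 0.0855). In shared layers Lhx1 stood at 49.99 against 6.22 in layer 7 and 9.20 against 1.46 in layer 11. Foxa2 and Sox17, which define endoderm, overlapped (0.373 to 4.46 against 0.148 to 8.54 FPKM, and 0.392 to 2.13 against 0 to 9.89), with log2 changes of 0.04 and 0.21.

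Of the junction genes 11 of 17 were tested, 0 passed and 4 lay apart, all higher, with a median of 0.80 (0.37 with no filter). Cdh1 (E-cadherin), which cells give up on leaving the streak, was at 0.982, 0.336 and 0.219 FPKM in heterozygous and 4.55, 6.64, 3.56, 3.59 and 1.14 in homozygous sections (log2 change 1.27, limma BH-adjusted p = 0.164). The claudins Cldn6 and Cldn7 were at 4.81 to 13.4 against 14.8 to 83.1 FPKM and 0 to 0.755 against 0.943 to 10.6. Cdh2 (N-cadherin), the cadherin of mesenchyme, was at 3.37 to 3.67 and 3.46 to 9.01, overlapping. Of the epiblast list 13 of 18 were tested, 0 passed and 2 lay apart: Pou5f1 (Oct4) at 24.0, 13.3 and 8.21 against 60.7, 45.5, 44.0, 30.8 and 37.1 FPKM (1.27, limma BH-adjusted p = 0.158), and Utf1 at 1.12 to 1.95 against 3.34 to 10.9. Pou3f1, specific to epiblast, was at 0.0635 to 1.45 against 0.0941 to 4.16 (-0.10). The epiblast median was 0.39 (0.21 without heterozygous layer 11, 0.63 without layer 9). Of the naive list 2 of 16 were tested, Dppa5a, which rose, and Tbx3, which overlapped.

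Of the HOX genes 2 of 13 were tested, 0 passed, and both had lower values in homozygous sections. Hoxb1 was at 1.41, 5.89 and 7.51 FPKM in heterozygous and 0, 0.202, 0.419, 0.614 and 3.90 in homozygous sections (log2 change -1.06, limma BH-adjusted p = 0.278). Hoxb2 was at 1.07, 4.20 and 3.09 against 0, 0, 0.0930, 0.982 and 1.66 (-0.91, limma BH-adjusted p = 0.336). In each shared layer both were lower in the homozygous section, and both were highest in layer 9 or 11 in either genotype. Among genes of migration, 11 of 15 were tested, 0 passed and 2 lay apart: the ligands Apela (0.770 to 1.03 against 2.86 to 11.2 FPKM, 1.66, limma BH-adjusted p = 0.0886) and Efna5 (0.690 to 1.71 against 3.07 to 6.64, 1.49, limma BH-adjusted p = 0.0924). Aplnr, the receptor of Apela, overlapped (-0.21). Irx3, a factor of neural tissue, was lower without overlap (1.44 to 2.84 against 0.346 to 1.19). Of the trophoblast list 2 of 16 were tested and 0 passed: Plet1 was lower (1.44 to 4.35 against 0 to 1.41 FPKM) and Rhox5 higher (0 to 4.67 against 4.74 to 38.8), both without overlap.

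**Figure D3:**
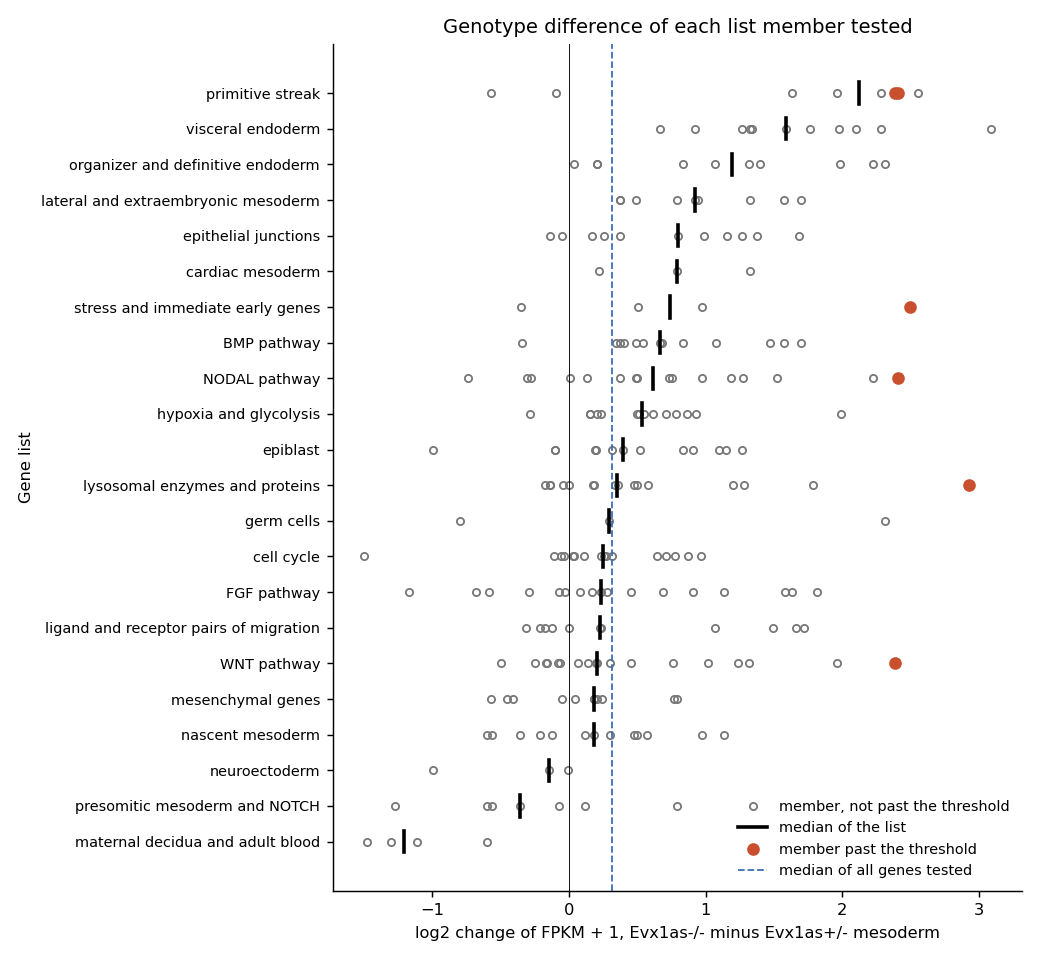
log2 change of each list member tested, homozygous minus heterozygous mesoderm (open circles not past, filled circles past the threshold), with the median of each list as a bar and that of all genes, 0.31, as a dashed line. The streak median of 2.12 and the maternal and adult blood median of -1.21 cover only members past the filter, and are 0.03 and -0.09 without it; lists with under 3 members tested, and the mitochondrial, ribosomal and respiratory chain lists, are not drawn.

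Lists of tissues that may have been cut along with the mesoderm depended on single sections. The visceral endoderm list had 11 of 26 members tested, 0 past, 5 apart and a median of 1.59, which was 0.79 with no filter on low values, 2.65 without homozygous layer 11 and 0.90 without heterozygous layer 7 and homozygous layer 9. The list of maternal and adult blood genes had a median of -1.21 over 4 members, -0.09 with no filter, 0.49 without heterozygous layer 7 and -2.06 without homozygous layer 11. It was 0.82 without heterozygous layer 7 and homozygous layer 9. Adult globins stood out in heterozygous layer 7 (Hba-a1 at 198 FPKM, 2.82 to 25.9 elsewhere). The streak median was 1.77 without those 2 sections, and those of the NODAL and organizer lists 0.36 and 0.84, all with 0 members past.

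Mitochondrially encoded RNAs, rRNAs included, took 3.38%, 4.83% and 5.42% of FPKM in heterozygous sections and 2.97%, 2.94%, 2.03%, 2.45% and 2.43% in homozygous ones (exact permutation p = 0.0357, the smallest that 3 against 5 allow; BH-adjusted 0.107). The coding genes alone, without rRNAs, summed to 3673, 5198 and 5371 FPKM in heterozygous and 3811 to 5093 in homozygous sections, which overlap. Their median log2 change was -0.17. Of the 13 mitochondrial coding genes 0 passed and 1 lay apart, mt-Nd3, a subunit of complex I, at 66.3, 91.0 and 73.9 against 59.8, 44.5, 23.4, 42.1 and 20.9 FPKM (log2 change -1.33, limma BH-adjusted p = 0.166). The rRNA mt-Rnr1, named after its value was seen, did not pass (-2.63, limma BH-adjusted p = 0.0872), but passed after median ratio scaling (-2.999, limma BH-adjusted p = 0.0406), as did mt-Rnr2 (-1.72). Genes of cytosolic ribosomal proteins (68 of 76 tested) had a median of -0.08 and 0 past, nuclear respiratory chain genes (73 of 80) 0.15 and 0, and cell cycle genes (16 of 17) 0.25 and 0. Without heterozygous layer 9 these medians were 0.19, 0.55 and 0.45. Without heterozygous layer 7 the ribosomal and respiratory chain medians were -0.31 and -0.09, and without layer 11 the cell cycle median was 0.06. Glycolysis and hypoxia genes (14 of 18 tested) had a median of 0.53, 0 past and 4 apart, all higher, among them Ldha at 208, 275 and 151 against 277, 322, 292, 296 and 373 FPKM. Lysosomal genes (16 of 19 tested) had a median of 0.35 (0.15 without heterozygous layer 11, 0.56 without layer 9) with 1 past and 1 apart, Ctsc in both cases. After median ratio scaling the medians of the nascent mesoderm, WNT, mesenchymal, cell cycle and nuclear respiratory chain lists were below 0.

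Some genes did not pass but had an unadjusted p under 0.01, no overlap and a mean of 5 FPKM or more where higher. Of all 8695 genes tested, list members included, 185 such genes were higher and 16 lower, and 71 and 8 of these were pseudogenes. With pseudogenes and predicted genes left out, the largest differences on the higher side, beside Etv2, Mixl1, Eomes and Lhx1, were in Pop7, a subunit of RNase P, at 12.5, 2.11 and 1.72 against 27.6, 18.7, 21.0, 25.6 and 48.8 FPKM (log2 change 2.50, limma BH-adjusted p = 0.102), Aunip, a partner of Aurora A kinase (2.33), the transmembrane protein Tmem60 (2.25) and the mitochondrial protein Hax1 (2.18). On the lower side, leaving out pseudogenes and predicted genes and requiring no overlap, which leaves out mt-Rnr1, were the ciliary protein Enkd1 (-1.55), Cdkn1c, Rpl22, a ribosomal protein (-1.46), the noncoding RNA Snhg12 (-1.38) and mt-Nd3. Cdkn1c, an imprinted inhibitor of the cell cycle, was at 7.85, 17.0 and 7.96 FPKM in heterozygous and 0, 1.24, 2.11, 2.68 and 5.58 in homozygous sections (-1.50, limma BH-adjusted p = 0.151).

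Whether the genotype difference is particular to mesoderm was tested against 11 streak sections, 6 heterozygous and 5 homozygous, as the interaction of genotype and region. Of 9527 genes 0 passed with limma and 337 (3.54%) had an unadjusted p under 0.05, so no gene here was shown to differ in its response between the regions. Within the streak 2 of 9932 genes (0.0201%) passed. The plot of both differences places Eomes (2.28 in mesoderm, 1.82 in streak), Lhx1 (2.31 and 1.92) and Fgf8 (1.63 and 1.84) near the line of equal change, and Mixl1 (2.55 and 1.66) above it. Sp5 was at 1.96 in mesoderm and -0.08 in streak (interaction 2.05 ± 0.49 SE, limma BH-adjusted p = 0.572). Cdh1 was at 1.27 and -0.33 (interaction limma BH-adjusted p = 0.75), Tmem60 at 2.25 and 0.15 (limma BH-adjusted p = 0.449) and Ctsc at 2.92 and 0.44 (limma BH-adjusted p = 0.999). Cdkn1c had -1.50 in mesoderm and 0.23 in streak. Hoxb1 and T were lower in both, at -1.06 and -2.67 and at -0.57 and -1.72.

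**Figure D4:**
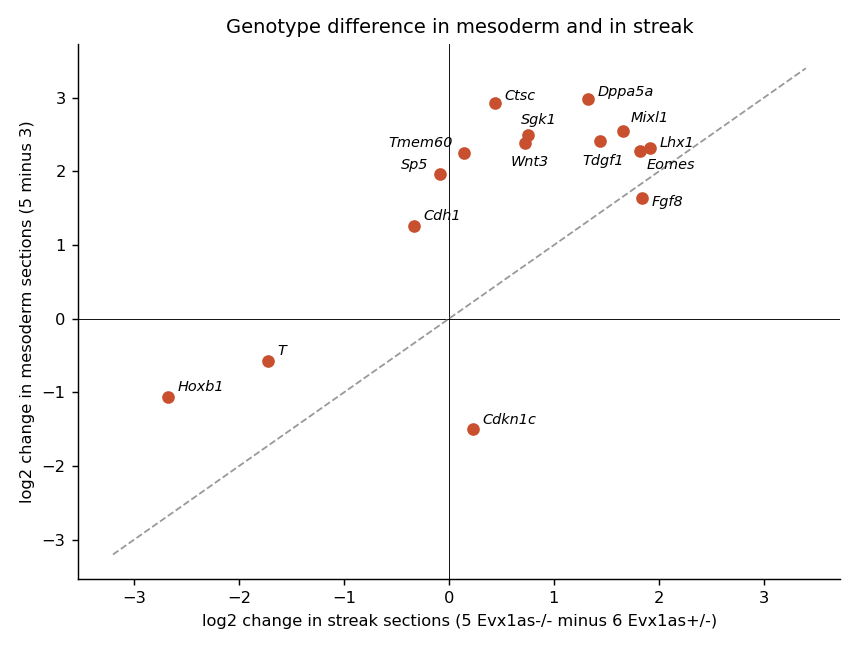
log2 change of 15 genes in mesoderm (vertical) against streak (horizontal), homozygous minus heterozygous, with a dashed line of equal change. Eomes, Lhx1 and Fgf8 lie near the line, Sp5 at 1.96 and -0.08 and Ctsc at 2.92 and 0.44 above it, and the interaction passed for none of the 15.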

How the data were processed

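Laser-captured sections of mouse embryos were sequenced after Geo-seq amplification. The FPKM values were used as deposited by the authors, 1 table per section with an interval per gene. The submitters' processing notes name CASAVA, TopHat2 2.0.11 and mm10, and the quantification tool is not given in the sources used here. Values of gene IDs listed in more than 1 row were added. Genes whose mean over the 8 sections reached 1 FPKM were fitted on log2(FPKM + 1) with limma 3.58.1 (R 4.3.3, mean-variance trend, genotype plus layer) and called at a Benjamini-Hochberg adjusted p under 0.05, after the code was tested on simulated data. The interaction fit added the streak sections. The files hold no counts, so no count model was used. Named were Evx1as, Evx1, protein-coding genes past the threshold, the largest differences not past it, and list members; pseudogenes and predicted genes were counted only. Alternatives were other pseudocounts, filters, scalings, priors and layer terms, conflicting sections added, and sections left out. The comparison, members and gene lists were chosen with earlier results of these data known. Sections whose labels conflict were left out.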

Additional observations from a re-analysis of the deposited data

Results flagged for a closer look

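Of 32 results checked among the 5 homozygous sections, 4 had 1 section far from the others by Dixon's ratio (gap over range, 95% critical value 0.710), and chance gives about 1 in 20. Sgk1 was low in layer 3 (ratio 0.793), at 2.44 on the log2(FPKM + 1) scale against 3.67 in the next section. The share of FPKM from Yam1 was high in layer 3 (ratio 0.792), at 22.2% against 10.4%. Summed streak markers were high in layer 7 (ratio 0.783), at 86.5 FPKM against 70.3. Summed visceral endoderm markers were high in layer 9 (ratio 0.866), at 985 FPKM against 208.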

How the results depend on the processing

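The count of 17 genes became 0 with a pseudocount of 5, with no filter on low values (27757 genes tested) and with a mean of at least 5 FPKM (3356 genes tested). It was 6 after quantile normalization, 60 (57 higher, 3 lower) without the layer term, and 6 and 227 (216 higher, 11 lower) when sections with conflicting labels were added, by their cell type label and by their title. Among alternatives chosen after seeing the data, it was 9 with protein-coding genes only, 6 when these were also scaled to their own sum, 3 with protein-coding genes in layers 7, 9 and 11, and 9 (0 higher, 9 lower) without heterozygous layer 7 and homozygous layer 9. Leaving out 1 section at a time gave 0 to 139: 139 without homozygous layer 3, 4 without layer 5, 0 without layer 7, 9 or 11, and 32 (21 higher, 11 lower), 40 (38 higher, 2 lower) and 20 (all higher) without heterozygous layer 7, 9 and 11, where 8, 15 and 12 of the 17 were still called. In layers 7, 9 and 11 it was 26, and 40 (37 higher, 3 lower) with layer as a replicate block, and 11 of the 17 were still called in either fit. There Tdgf1 (limma BH-adjusted p = 0.053 and 0.0784 with the block) and Olfr414 (0.0502 and 0.062) did not pass, and Wnt3 passed only with the block (0.0504 and 0.049). Over all genes tested, deviations of sections of the same layer correlated at 0.057, 0.018 and 0.024, and those of different layers at -0.033 to 0.0076. Values this low over all genes cannot decide whether layer numbers pair the sections. After median ratio scaling 16 genes were higher and 3 lower, and 13 of the 17 were still called. The interaction count of 0 became 1 after median ratio scaling, 2 in layers 7, 9 and 11 with or without the replicate block, and 0 to 1 with 1 section left out. The cause of these changes was not tested. The 6 protein-coding genes were higher in homozygous sections under all alternatives run, and passed in 10 (Tdgf1) to 19 (Dppa5a) of 25 or 26. Their direction largely follows from their call on these same sections. Depth is unknown, so no floor can be given for values listed at 0.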

Other observations

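Imprinted genes of growth varied widely among layers of each genotype. Phlda2, which limits placental growth, was at 168, 1171 and 1340 FPKM in heterozygous layers 7, 9 and 11 and at 13.9, 62.7, 105, 450 and 1341 in homozygous layers 3 to 11 (log2 change -0.60, limma BH-adjusted p = 0.503). Igf2, a fetal growth factor, was at 3.12, 24.5 and 33.3 against 0.855, 1.65, 3.19, 7.36 and 14.3 FPKM (-0.77, limma BH-adjusted p = 0.447). Both were highest in layer 11 of each genotype, and these genes were chosen after their values were seen.

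Copies of Rps12, a ribosomal protein gene itself listed at 0 in all 8 sections, were also singled out after their values were seen. Rps12-ps14 was at 4.08, 193 and 62.3 FPKM in heterozygous and 0.976, 0, 0, 0.714 and 0.795 in homozygous sections (log2 change -4.44, limma BH-adjusted p = 0.0886). Reads of such near-identical copies cannot be told apart.

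In the sections with conflicting labels, Tdgf1 was at 20.0 and 15.6 FPKM in the heterozygous sections titled mesoderm (layers 3 and 7) and at 230 in the homozygous section titled streak (layer 3). Wnt3 was at 1.12, 0 and 16.4 FPKM in the same sections.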
